A study of Homo sapiens with 18 samples.

Results

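The genes described here are 34 genes of glycolysis and of the response to low oxygen, followed through 6 groups of THP-1 cells, a suspension line established from a human monocytic leukaemia. They were chosen by symbol, for their function, and cover glucose and lactate transporters, the enzymes from hexokinase to lactate dehydrogenase, 4 genes that link the pathway to mitochondria, and genes of the hypoxia-inducible factor (HIF) with some of its known targets. All 34 symbols were found with counts among the 63677 genes of the table, and 33 were among the 16678 genes that passed a filter on low counts and were tested. EGLN3, an oxygen sensor of the HIF pathway, did not pass, with 1 to 28 counts per library. Together the 34 genes held 0.427% to 0.547% of the counts of a library.

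TRAFD1 was targeted with an siRNA in KD, SCR was given a scrambled one, each at 25 nM, and WT had none. At 72 h after transfection they were given lipopolysaccharide (LPS), a component of bacterial cell walls, at 10 ng/ml, or medium alone, for 4 h. Each of the 6 groups held 3 libraries, with the numbers 1 to 3 for medium and 4 to 6 for LPS. The labels differ on WT, which is called untreated in one place and said to have received the transfection mix without siRNA in another, so that in SCR against WT the reagent and the siRNA cannot be told apart. In KD against WT, the loss of TRAFD1 and the delivery of an siRNA cannot be told apart either. All groups are one cell line, and a single siRNA was used against TRAFD1.

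Glycolysis splits glucose into pyruvate in the cytosol, and lactate dehydrogenase turns pyruvate into lactate, which leaves the cell through monocarboxylate transporters. When oxygen is scarce, HIF1A is no longer marked for destruction by the prolyl hydroxylases EGLN1 and EGLN3, and it raises the transcription of transporters, glycolytic enzymes and survival genes. Monocytes and macrophages exposed to LPS are known for a shift towards glycolysis, in which HIF1A takes part.

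Levels are CPM, the counts of a gene per 1000000 counts of the scaled library total, computed from the genes tested. The libraries were made from the 3' end of each RNA, so that gene length does not enter a level, although how well each 3' end is captured is not known. Fold changes are on the log2 scale and come from one edgeR quasi-likelihood fit to all 18 libraries, with Benjamini-Hochberg adjustment over all genes tested. A gene was called changed at an adjusted p under 0.05. The labels say that treatments were done in triplicate, not that the cultures were grown apart, so that p-values measure the spread between these libraries, which may be technical. Where a fold change is given with an error, the error is its standard error (SE), and levels are given as mean ± SD over n = 3 libraries.

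Total counts ran from 8206023 to 22344279 per library, and a floor of 3 counts stood at 0.133 to 0.378 CPM. TRAFD1 fell to 8.67 CPM in KD from 23.7 CPM in SCR without LPS (adjusted p = 0.0277). With LPS it was at 15.8, 14.0 and 13.8 CPM in KD, 21.9, 27.5 and 18.7 CPM in SCR and 19.2, 20.3 and 11.6 CPM in WT, and neither difference passed (adjusted p = 0.262 against SCR and 0.563 against WT). The LPS labels were borne out by IL1B, an inflammatory cytokine, at 19.4 to 56.6 CPM in the 9 libraries with LPS and 1.01 to 3.31 CPM in the 9 without. All 10 monocytic markers examined were tested, and their summed level was 856 to 1087 CPM. Markers of other cell types summed to 2.71 to 6.08 CPM, and 2 of 12 passed the filter.

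Several libraries were often at one end of their group. WT library 3 was the highest of its group for 20 of the 33 genes tested, WT library 1 the lowest for 19 and SCR library 4 the lowest for 18. KD library 1 was the highest for 16 and the lowest for 15. Over all genes tested, a library was the highest of its group for 30.7% to 37.8% of genes and the lowest for 28.3% to 39.1%. HK2, SLC2A1, VEGFA and LDHA were among those at which KD library 1 was highest. Results that rest on a single library are given with and without it.

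In WT without LPS, the 6 most abundant of these RNAs were enzymes of the pathway. ENO1 (enolase) stood at 620 ± 37.5 CPM, GAPDH at 523 ± 176 CPM, LDHB at 461 ± 14.0 CPM, PGAM1 at 419 ± 20.6 CPM, ALDOA at 381 ± 84.6 CPM and PGK1 at 354 ± 23.7 CPM. These neighbours in the order lie within each other's spread only in part, since GAPDH alone ranged from 386 to 721 CPM. Transporters and HIF genes were below these, with SLC16A3 at 138 ± 19.6 CPM, SLC2A1 at 50.5 ± 2.46 CPM, HIF1A at 40.0 ± 1.95 CPM and ANKRD37 at 0.711 ± 0.258 CPM.

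Each family of isozymes was led by the same gene in nearly all libraries. HK1, the hexokinase of most tissues, had more counts than the inducible HK2 in 17 of 18 libraries, KD library 1 being the exception, and more than HK3 in 18 of 18. PFKP exceeded PFKL, and PFKL exceeded the muscle form PFKM, in 18 of 18. LDHB, the form that predominates in oxidative tissues, had 1.40 to 3.003 times the counts of LDHA, which is the form that predominates in muscle and in many tumours. PFKFB3, which makes the activator of phosphofructokinase, had 8.28 to 17.8 times the counts of PFKFB4.

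**Figure D1:**
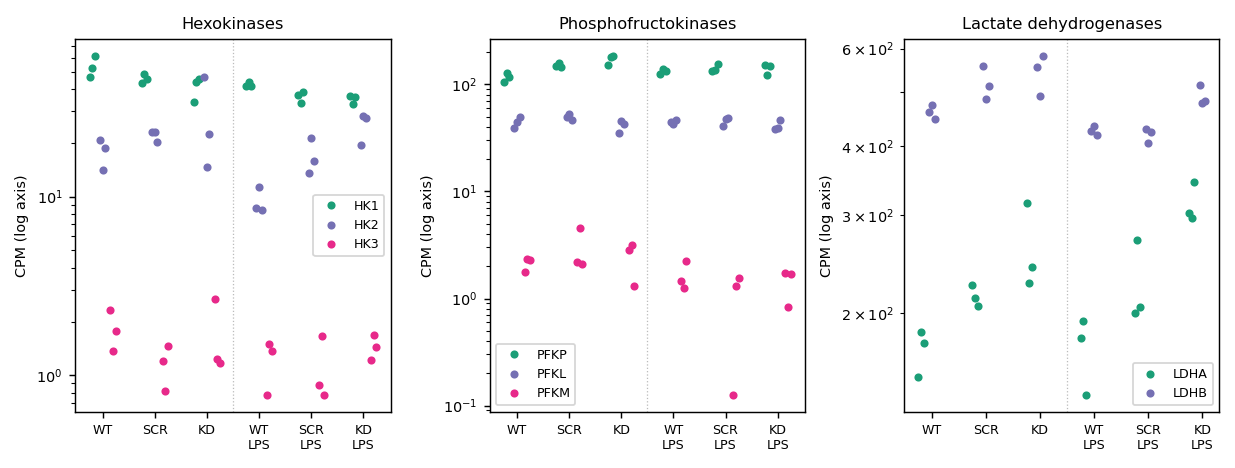
Levels of the hexokinases, phosphofructokinases and lactate dehydrogenases in each of the 18 libraries (points, CPM on a log axis), by condition without LPS (left of the dotted line) and with LPS (right). HK1 lies above HK2 in 17 of 18 libraries, and LDHB above LDHA in 18 of 18.

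The first comparison asks what LPS does to these genes in cells without siRNA. Of the 33 genes, 7 changed in WT, 3 upwards and 4 downwards, where 14.3% of all genes tested changed. Their median log2 fold change was -0.11, against -0.03 over all genes tested. The enzymes from GPI to the lactate dehydrogenases, both upper and lower, held none of the 7. The genes that changed were transporters, HK2, the mitochondrial GPD2, and 2 genes of the HIF pathway.

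GPD2, the mitochondrial glycerol-3-phosphate dehydrogenase, carries electrons from cytosolic NADH into the respiratory chain. Its gene (ENSG00000115159) lies on chromosome 2 of GRCh37, from 157291802 to 157470247. It was at 183, 167 and 193 CPM in the WT libraries without LPS and at 376, 382 and 382 CPM in those with LPS. The groups lie far apart, and the fold change was 1.07 ± 0.08 (adjusted p = 6.28e-09). The other genes that rose were SLC16A3 and HIF1A.

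SLC16A3, a monocarboxylate transporter that exports lactate, was at 116, 144 and 153 CPM without LPS and at 208, 215 and 232 CPM with LPS (0.66 ± 0.12, adjusted p = 0.000684). SLC16A1, the related transporter that moves lactate in either direction, went the other way, from 104, 91.1 and 107 CPM to 75.6, 76.0 and 75.8 CPM (-0.41 ± 0.10, adjusted p = 0.00508). The groups did not overlap for either gene. In counts, SLC16A3 rose from 57.7% ± 4.46 to 74.2% ± 1.02 of the pair. The last 500 bases of SLC16A3 overlap CSNK1D on the opposite strand over 336 bases, and whether counting used strand is not given in the sources used here, so that the level of SLC16A3 is uncertain.

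HIF1A (ENSG00000100644), the oxygen-regulated subunit of HIF, went from 40.5, 41.6 and 37.8 CPM to 55.1, 53.7 and 51.1 CPM (0.42 ± 0.11, adjusted p = 0.0157). EGLN1 (ENSG00000135766, chromosome 1, 231499497 to 231558033), the main prolyl hydroxylase that marks HIF1A for destruction and itself a known HIF target, fell from 56.4, 52.9 and 56.7 CPM to 31.9, 33.2 and 29.4 CPM (-0.81 ± 0.14, adjusted p = 0.000291). Both pairs of groups were separate. The enzyme and its substrate thus moved in opposite directions at the RNA level.

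SLC2A3, a high-affinity glucose transporter, fell from 24.6, 28.1 and 32.8 CPM to 21.3, 21.1 and 20.7 CPM (-0.44 ± 0.13, adjusted p = 0.0296). HK2, the inducible hexokinase, fell from 20.7, 14.2 and 18.8 CPM to 8.66, 11.4 and 8.42 CPM (-0.92 ± 0.30, adjusted p = 0.0428). These last calls lie near the threshold. SLC2A3 did not pass without WT library 2, 3, 4, 5 or 6 (adjusted p = 0.0527 to 0.177), nor when the fit held the WT libraries alone (adjusted p = 0.0611). HK2 did not pass without WT library 1, 3, 4, 5 or 6 (adjusted p = 0.0505 to 0.135), and HIF1A did not pass without library 3 (0.0764) or library 4 (0.0604). The count of genes called was thus 4 without library 3 and 4 without library 4. All genes called fell as well, from 2380 to 1735 and 1682.

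SLC2A1, the main glucose transporter of most cells, stood at 53.1, 50.3 and 48.2 CPM without LPS and 39.0, 41.2 and 39.0 CPM with LPS. The groups did not overlap, but the difference did not pass over all genes (-0.35 ± 0.16, adjusted p = 0.176). PFKFB3 was at 97.0 ± 8.50 and 76.1 ± 5.01 CPM (adjusted p = 0.0622), and passed without WT library 2 (0.0444) and with DESeq2 on the WT libraries (0.0483). LDHA was at 172 CPM in both states (0.00 ± 0.14, adjusted p = 0.990), and its sign turned with the filter on low counts and with single libraries left out. GAPDH, which the study used as reference in its quantitative PCR, had a fold change of 0.20 ± 0.16 (adjusted p = 0.491), which was 0.50 and passed without WT library 2 (adjusted p = 0.0166).

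**Figure D2:**
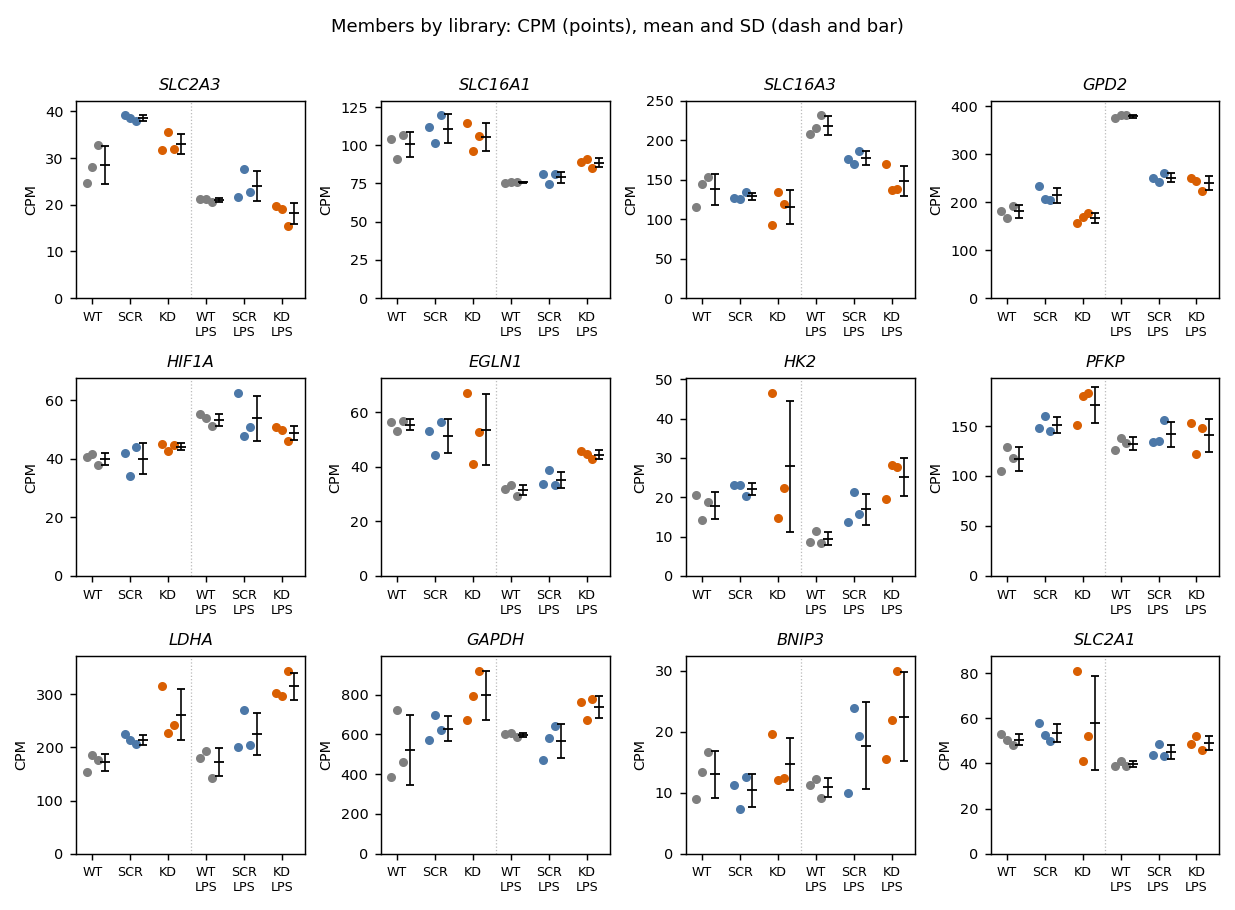
Levels of 12 of the genes in each library (points, CPM on a linear axis from 0) by group, with the group mean (dash) and SD (bar) to the right of the 3 points. GPD2 separates WT with LPS from every other group, and HK2 and SLC2A1 show KD library 1 above the other libraries without LPS.

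In SCR, 8 of 33 genes changed with LPS, 3 upwards and 5 downwards, beside 17.2% of all genes tested. SLC16A3 and HIF1A rose here too, at 0.46 ± 0.12 (adjusted p = 0.0126) and 0.42 ± 0.11 (adjusted p = 0.0134). SLC2A3, SLC16A1 and EGLN1 fell, at -0.68 ± 0.13 (adjusted p = 0.00107), -0.49 ± 0.10 (adjusted p = 0.00116) and -0.54 ± 0.14 (adjusted p = 0.00966). In SLC2A3 the libraries went from 39.2, 38.6 and 37.9 CPM to 21.7, 27.7 and 22.7 CPM, with no overlap.

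The other 3 genes called in SCR were PKM, LDHB and PDHA1. PKM, pyruvate kinase, went from 206, 212 and 212 CPM to 326, 254 and 278 CPM (0.44 ± 0.11, adjusted p = 0.00925). LDHB fell from 519 ± 36.4 to 420 ± 12.7 CPM (-0.31 ± 0.08, adjusted p = 0.00854). PDHA1, a subunit of the pyruvate dehydrogenase that feeds pyruvate to the citric acid cycle, fell from 140 ± 12.4 to 113 ± 4.47 CPM (-0.32 ± 0.09, adjusted p = 0.0212). Single libraries decided 6 of the 8 calls in SCR. Without library 4, PKM (adjusted p = 0.0792), HIF1A (0.108) and PDHA1 (0.101) did not pass, and without library 1 neither LDHB (0.0579) nor PDHA1 (0.131) did. EGLN1 did not pass without library 3 (0.0511), HIF1A without library 2 (0.0784), SLC16A3 without library 6 (0.0528) and PDHA1 without library 5 (0.0669).

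GPD2 was at 233, 207 and 205 CPM in SCR without LPS and at 251, 242 and 260 CPM with LPS, a difference that did not pass (0.22 ± 0.08, adjusted p = 0.0739). HK2 had 22.2 ± 1.58 and 16.9 ± 3.98 CPM (adjusted p = 0.400). SLC2A1 had 53.4 ± 4.04 and 45.1 ± 2.96 CPM (adjusted p = 0.328), PFKFB3 86.9 ± 16.2 and 74.7 ± 3.77 CPM (adjusted p = 0.241), LDHA 214 ± 9.45 and 225 ± 39.7 CPM (adjusted p = 0.767) and GAPDH 629 ± 63.7 and 567 ± 86.5 CPM (adjusted p = 0.591). Whether the response in SCR differs from that in WT needs a test of the difference, given below.

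In KD, 2 of 33 genes changed with LPS, beside 11.5% of all genes tested. SLC2A3 fell from 31.7, 35.5 and 31.9 CPM to 19.8, 19.0 and 15.5 CPM (-0.86 ± 0.13, adjusted p = 0.000128), and GPD2 rose from 157, 169 and 177 CPM to 251, 245 and 225 CPM (0.52 ± 0.08, adjusted p = 0.000235). Both pairs of groups were separate. SLC2A3 was called lower with LPS in WT, SCR and KD. SLC16A1 also had a lower mean with LPS in each, but did not pass in KD (-0.25, adjusted p = 0.0881). Without KD library 1 the count was 4, and without library 2 it was 5. All genes called went from 1912 to 3150 and 1567 in that order.

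SLC2A3 and GPD2 kept their calls without each single library, but KD library 1 moved the values of genes that were not called. HK2 was at 46.5, 14.7 and 22.3 CPM in KD without LPS and at 19.5, 28.1 and 27.6 CPM with LPS, a fold change of -0.15 ± 0.28 (adjusted p = 0.769) that turned to 0.44 (adjusted p = 0.170) without library 1. SLC2A1 was at 81.0, 41.0 and 51.9 CPM and at 48.6, 52.1 and 46.0 CPM, and its fold change of -0.25 ± 0.16 (adjusted p = 0.342) turned to 0.07 (adjusted p = 0.724) without library 1 and passed at -0.44 (adjusted p = 0.0484) without library 2. LDHA was at 316, 227 and 242 CPM and at 303, 297 and 344 CPM (0.27 ± 0.14, adjusted p = 0.216), and passed without library 1 (0.43, adjusted p = 0.0291). For HIF1A the libraries ran from 42.6 to 45.0 CPM without LPS and from 46.1 to 50.7 CPM with it, which did not pass (0.15 ± 0.11, adjusted p = 0.438). PFKFB3 had 67.6 ± 9.75 and 69.2 ± 1.79 CPM (adjusted p = 0.8999) and GAPDH 796 ± 124 and 738 ± 55.5 CPM (adjusted p = 0.715), and the sign of both turned without a KD library or with a correction for GC content.

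Other genes of the pathway give the setting of these values. Of all genes tested, 14.3% changed with LPS in WT, 17.2% in SCR and 11.5% in KD, beside the lists that follow. Of 13 further genes of glycolysis that were tested, 1 rose with LPS in WT and 1 rose and 1 fell in each of SCR and KD. The one that rose was SLC2A6, a glucose transporter of the lysosome, at 8.25, 4.54 and 8.49 CPM in WT without LPS and 83.5, 71.7 and 64.6 CPM with LPS (3.33 ± 0.20, adjusted p = 8.93e-11). Its fold change was 2.70 ± 0.20 in SCR and 2.92 ± 0.21 in KD. PFKFB2, a relative of PFKFB3, fell in SCR (-0.79 ± 0.26, adjusted p = 0.0380) and KD (-1.16 ± 0.26, adjusted p = 0.00548).

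Of 11 genes that carry pyruvate into the mitochondria or oxidise it there, 3 fell and 1 rose with LPS in WT, 1 fell and 1 rose in SCR, and 0 changed in KD (edgeR, with 4 at an unadjusted p under 0.05 and 2 called by DESeq2). PDHB, a further subunit of pyruvate dehydrogenase, fell in WT from 44.1 ± 7.18 to 28.6 ± 2.95 CPM (-0.63 ± 0.15, adjusted p = 0.00573). Of 7 genes of the pentose phosphate pathway, PGD rose in WT (0.47 ± 0.11, adjusted p = 0.00448) and none changed in SCR or KD, where 2 and 0 had an unadjusted p under 0.05 in edgeR and DESeq2 called 1 and 0.

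The known HIF targets outside the 34 genes moved in both directions with LPS. Of 22 tested, 4 rose and 7 fell in WT, 4 rose and 5 fell in SCR, and 4 rose and 3 fell in KD. These are 50%, 40.9% and 31.8% of the 22, beside 14.3%, 17.2% and 11.5% of all genes tested. Without WT library 3, 7 were called in WT, and all genes called went from 2380 to 1735. HMOX1, which breaks down haem, rose from 19.5 ± 3.18 to 217 ± 7.76 CPM in WT (3.48 ± 0.18, adjusted p = 4.28e-12). DDIT4, an inhibitor of mTORC1, fell from 102 ± 8.59 to 26.9 ± 3.55 CPM (-1.92 ± 0.12), and STC2, a secreted glycoprotein, from 35.9 ± 7.32 to 8.75 ± 0.52 CPM (-2.04 ± 0.18). In SCR and KD, HMOX1 rose and DDIT4 and STC2 fell as well. Many of these genes also answer to other stresses than low oxygen.

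Of 12 further genes of the HIF machinery, 1 fell with LPS in WT, 0 changed in SCR (edgeR, with 4 at an unadjusted p under 0.05 and 0 called by DESeq2) and 1 fell in KD. EPAS1, the sister subunit of HIF1A, fell in WT from 7.46 ± 1.41 to 3.82 ± 1.599 CPM (-0.95 ± 0.30, adjusted p = 0.0379). EGLN2, a relative of EGLN1, fell in KD (-0.45 ± 0.13, adjusted p = 0.0282).

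The next question was whether the LPS response differed between conditions. Between SCR and WT, 1 of 33 genes had a different response, where 0.234% of all genes tested did. Of those 39 genes, 36 had a lower fold change with LPS in SCR and 3 a higher one. The gene of the list was GPD2, whose fold change with LPS was lower in SCR than in WT, with an interaction of -0.85 ± 0.12 (adjusted p = 0.00142). It kept its call without each of the 12 libraries in turn (adjusted p = 0.00222 to 0.00942). Between KD and SCR, 0 of 33 genes differed in response and 0 of all genes tested (0% called), with 1 gene of the list (GPD2, 0.30 ± 0.12, adjusted p = 0.604) and 1274 of all genes at an unadjusted p under 0.05. None of the 33 was called by DESeq2 in this interaction either. For HIF1A, called in WT and SCR and not in KD, the interaction of KD against SCR was -0.27 ± 0.16 (adjusted p = 0.710).

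**Figure D3:**
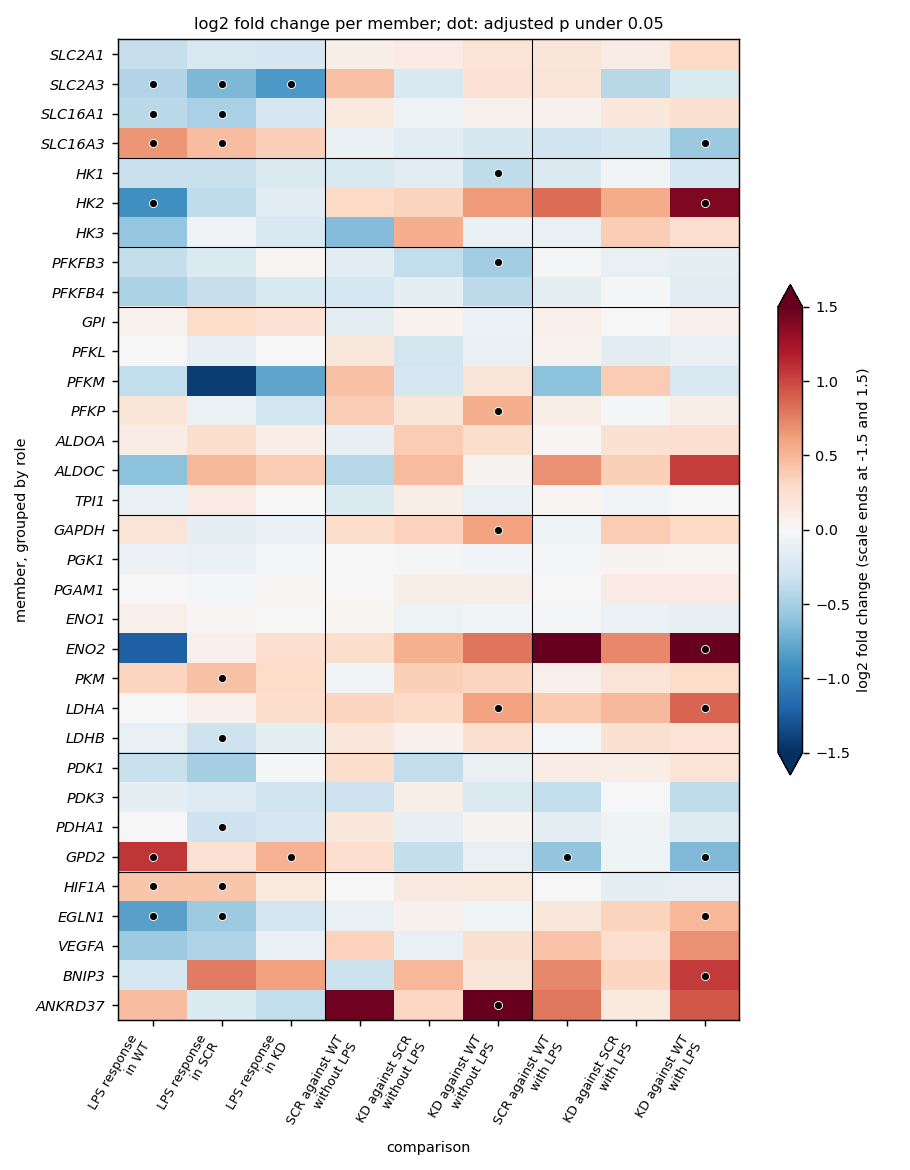
log2 fold changes of the 33 genes tested (rows, grouped by role from transporters at the top to the HIF pathway at the bottom) in 9 comparisons (columns), with red for higher and blue for lower and a scale that ends at -1.5 and 1.5. Dots mark an adjusted p under 0.05. Both columns of KD against SCR hold no dot, and 4 of the 6 dots in the block of lower glycolysis (GAPDH to LDHB) lie in KD against WT.

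The comparison that isolates the TRAFD1 siRNA is KD against SCR. Without LPS, 0 of 33 genes changed, where 0.0660% of all genes tested did. At an unadjusted p under 0.05 stood 8 of the 33 (24.2%) and 12.6% of all genes tested. DESeq2 on all libraries called 242 of all genes and 1 of the 33, which was GPD2 (adjusted p = 0.0192). GPD2 was at 157, 169 and 177 CPM in KD and at 233, 207 and 205 CPM in SCR, with no overlap (-0.36 ± 0.08, adjusted p = 0.0802 in edgeR). PKM (0.36 ± 0.11, adjusted p = 0.177) and ALDOA (0.38 ± 0.12, adjusted p = 0.179), chosen after their values were seen, followed, each with KD libraries above all SCR libraries.

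With LPS, 0 of 33 genes changed between KD and SCR in edgeR, where 0% of all genes tested did. An unadjusted p under 0.05 was reached by 6 of the 33 (18.2%) and by 11.8% of all genes tested. DESeq2 called 1 gene in all libraries, LDHA (adjusted p = 0.0412), and 3 in the libraries of the comparison alone. Of all genes it called 142 and 619 in that order. LDHA was at 303, 297 and 344 CPM in KD and 200, 271 and 205 CPM in SCR, without overlap (0.48 ± 0.14, adjusted p = 0.201 in edgeR). GAPDH was at 762, 674 and 777 CPM in KD and 474, 584 and 644 CPM in SCR (0.38 ± 0.16, adjusted p = 0.368), and its groups did not overlap either.

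GAPDH passed with DESeq2 on the libraries of the comparison (adjusted p = 0.0137) and without the filter (0.0237). None of the remaining values of the genes named by rule for this comparison passed. HK2 had a fold change of 0.34 ± 0.28 without LPS (adjusted p = 0.668) and 0.56 ± 0.28 with LPS (adjusted p = 0.452), and the first turned to -0.26 (adjusted p = 0.602) without KD library 1. SLC2A1 had 0.12 ± 0.16 in both states (adjusted p = 0.814 and 0.818), the first turning to -0.20 (adjusted p = 0.428) without that library. PFKFB3 had -0.36 ± 0.12 (adjusted p = 0.209) and -0.11 ± 0.12 (adjusted p = 0.759). HIF1A had 0.14 ± 0.11 (adjusted p = 0.666) and -0.13 ± 0.11 (adjusted p = 0.664). LDHA and GAPDH without LPS had 0.29 ± 0.14 (adjusted p = 0.386) and 0.34 ± 0.16 (adjusted p = 0.392).

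The scrambled siRNA against no siRNA changed 0 of 33 genes without LPS, beside 3.23% of all genes tested. An unadjusted p under 0.05 was reached by 6 of the 33 (18.2%) and by 17.2% of all genes tested. DESeq2 on all libraries called 2 of the 33 and 929 of 14413 genes. SLC2A3 came closest, at 39.2, 38.6 and 37.9 CPM in SCR and 24.6, 28.1 and 32.8 CPM in WT (0.44 ± 0.13, adjusted p = 0.0674), together with PFKP (0.37 ± 0.11, adjusted p = 0.0676). GAPDH had 0.27 ± 0.16 (adjusted p = 0.431), which was 0.57 and passed without WT library 2 (adjusted p = 0.0235). With LPS, 1 of 33 genes changed, beside 0.114% of all genes tested. This was GPD2, at 251, 242 and 260 CPM in SCR and 376, 382 and 382 CPM in WT (-0.60 ± 0.08, adjusted p = 0.00724), and it did not pass without SCR library 5 (adjusted p = 0.0682). With the replicate number as a block, 135 genes in place of 19 and again 1 of the 33 were called. GAPDH had -0.08 ± 0.16 (adjusted p = 0.879), with a sign that turned under a correction for GC content.

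KD against WT compares cells given the TRAFD1 siRNA with cells given none, and TRAFD1 itself did not pass between them with LPS. Without LPS, 6 of 33 genes changed, 4 upwards and 2 downwards, beside 11.7% of all genes tested. Their median log2 fold change was 0.07, against -0.01 over all genes tested. The genes that rose were the phosphofructokinase PFKP, GAPDH, LDHA and the HIF target ANKRD37, and HK1 and PFKFB3 fell. When the fit held only the WT and KD libraries without LPS, 1 of the 33 genes was called, together with 280 of all genes tested.

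PFKP (ENSG00000067057), the platelet form of phosphofructokinase, which commits sugar to glycolysis, was at 151, 181 and 183 CPM in KD and 105, 129 and 118 CPM in WT (0.55 ± 0.11, adjusted p = 0.00239). Its share of the counts of the 3 phosphofructokinases was 79.7% ± 0.83 in KD and 71.6% ± 1.91 in WT. PFKFB3 was at 60.6, 63.6 and 78.8 CPM in KD and 99.4, 87.6 and 104 CPM in WT (-0.52 ± 0.12, adjusted p = 0.00854). The enzyme and the maker of its activator therefore lay on opposite sides, and both pairs of groups were separate. PFKFB3 did not pass without WT library 3 (adjusted p = 0.0518).

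LDHA (ENSG00000134333, chromosome 11, 18416107 to 18429972) was at 316, 227 and 242 CPM in KD and 154, 185 and 177 CPM in WT (0.61 ± 0.14, adjusted p = 0.00573), and kept its call without KD library 1 or any other single library (adjusted p up to 0.0348). GAPDH (ENSG00000111640) was at 673, 795 and 920 CPM in KD and 386, 721 and 461 CPM in WT (0.61 ± 0.16, adjusted p = 0.0185). Its groups overlapped, and it did not pass without WT library 1 (adjusted p = 0.102), WT library 3 (0.0998) or KD library 3 (0.0891).

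ANKRD37, an ankyrin-repeat protein known as a HIF target, was at 3.76, 2.15 and 1.24 CPM in KD and 0.961, 0.726 and 0.445 CPM in WT (1.76 ± 0.54, adjusted p = 0.0385). Its call was lost without KD library 1 (1.26, adjusted p = 0.171) and without WT library 1 (0.0551), 2 (0.0725) or 3 (0.170). Its 3' end overlaps that of UFSP2 over 225 bases, so that so few counts are uncertain. HK1 was at 33.7, 43.6 and 45.6 CPM in KD and 46.9, 52.4 and 61.0 CPM in WT (-0.38 ± 0.12, adjusted p = 0.0440). It did not pass without WT library 2 (0.0666), WT library 3 (0.243), KD library 1 (0.179) or KD library 2 (0.0512). Without WT library 3, 3 of the 33 genes were called, and all genes called went from 1951 to 962.

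With LPS, 7 of 33 genes differed between KD and WT, 5 upwards and 2 downwards, beside 10.8% of all genes tested. Their median log2 fold change was 0.12, against 0.00 over all genes tested. Fits to the libraries of this comparison alone called 12 of the list in edgeR and 13 in DESeq2. All genes called rose as well, from 1808 to 3235 in edgeR and 2949 in DESeq2. LDHA, HK2 and ENO2 of glycolysis and EGLN1 and BNIP3 of the HIF targets rose, and GPD2 and SLC16A3 fell. GPD2 and SLC16A3 are genes that rose with LPS in WT, and HK2 and EGLN1 are genes that fell there, and the 2 comparisons share the WT libraries with LPS.

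Among the genes that were higher, LDHA was at 303, 297 and 344 CPM in KD and 180, 193 and 142 CPM in WT, with SCR at 200, 271 and 205 CPM (KD against WT 0.87 ± 0.14, adjusted p = 0.00110). HK2 (ENSG00000159399, chromosome 2, 75061254 to 75120486) was at 19.5, 28.1 and 27.6 CPM in KD and 8.66, 11.4 and 8.42 CPM in WT (1.40 ± 0.30, adjusted p = 0.00690). In both genes the lowest KD library lay above the highest WT library, and both kept their calls without each single library (adjusted p up to 0.0130 for LDHA and 0.0455 for HK2). HK2 held 40.4% ± 5.66 of the counts of the 3 hexokinases in KD and 17.8% ± 1.98 in WT, and LDHA 39.0% ± 2.42 and 28.6% ± 2.86 of those of the 2 lactate dehydrogenases.

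EGLN1 was at 45.9, 44.7 and 42.8 CPM in KD and 31.9, 33.2 and 29.4 CPM in WT (0.50 ± 0.14, adjusted p = 0.0278). BNIP3, a mitochondrial protein that takes part in the removal of mitochondria, was at 15.5, 22.0 and 30.03 CPM in KD and 11.3, 12.2 and 9.11 CPM in WT (1.05 ± 0.30, adjusted p = 0.0298). ENO2, the neuronal form of enolase and a HIF target, was at 1.05, 2.82 and 3.81 CPM in KD and 0.681, 0.418 and 0.490 CPM in WT (2.27 ± 0.69, adjusted p = 0.0391). The groups of these 3 genes did not overlap, but their calls lay near the threshold. EGLN1 did not pass without WT library 4 or 6 or any KD library (adjusted p = 0.0530 to 0.130), ENO2 without any WT library or KD library 5 or 6 (0.0771 to 0.143), and BNIP3 without WT library 4 or 6 or KD library 5 or 6 (0.0721 to 0.144).

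BNIP3 also has a near-identical copy, the pseudogene BNIP3P1, whose sequence matches the last 500 bases of BNIP3 at 98.0% over 498 bases. The copy holds 4790 counts over all libraries and BNIP3 3765, so that reads may be split between them. The same holds for PGAM1, with 106224 counts, and PGAM4, with 50272, at 97.4% over 501 bases. PGAM1 was called in none of the 11 comparisons, and adding the pseudogenes to their genes left the count of the 33 genes called as it was in each comparison. PGAM4 is annotated as protein-coding and was not among those added.

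The 2 genes that were lower in KD than in WT with LPS were GPD2, at 251, 245 and 225 CPM against 376, 382 and 382 CPM (-0.66 ± 0.08, adjusted p = 0.000403), and SLC16A3, at 170, 137 and 138 CPM against 208, 215 and 232 CPM (-0.56 ± 0.12, adjusted p = 0.00838). Both were separate from WT. SLC16A3 did not pass without WT library 6 (adjusted p = 0.0574) or KD library 5 (0.0546). The count of genes called was 3 without WT library 6 or KD library 5, and 4 without WT library 4 or KD library 6. All genes called fell as well, from 1808 to 376, 596, 1098 and 1103 in that order. HIF1A itself had -0.13 ± 0.11 (adjusted p = 0.523) and GAPDH 0.30 ± 0.16 (adjusted p = 0.248). GAPDH passed under 5 of 9 alternatives, which were DESeq2 (adjusted p = 0.00124) and edgeR (0.00776) on the libraries of the comparison, no filter (0.0490), the GC correction (0.0396) and the replicate block with the GC correction (0.0143).

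Promoters of some of the genes called in KD against WT with LPS are shown because HIF binds DNA at a short core. Only the form ACGTG, which reads CACGT on the other strand, was searched, and it is called the core here. Other forms were neither counted nor marked. The core lies inside the palindrome CACGTG, which other factors also bind, and such a site was counted once. Each line gives the 250 bases before a transcription start from RefSeq (GRCh38.p14, not the build of the counts), 5' to 3' on the strand of the gene, with the core in capitals. LDHA, EGLN1 and BNIP3 are 3 of the genes that were higher with LPS, and GPD2 and SLC16A3 are the 2 that were lower. HK2 and ENO2, which were also higher, are not shown.
LDHA chr11:18394313-18394562 (+ strand): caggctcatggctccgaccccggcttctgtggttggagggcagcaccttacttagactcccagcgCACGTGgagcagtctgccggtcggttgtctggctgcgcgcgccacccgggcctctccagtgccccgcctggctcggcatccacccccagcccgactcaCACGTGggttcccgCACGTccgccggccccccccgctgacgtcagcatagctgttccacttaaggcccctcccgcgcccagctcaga
EGLN1 chr1:231422288-231422537 (- strand): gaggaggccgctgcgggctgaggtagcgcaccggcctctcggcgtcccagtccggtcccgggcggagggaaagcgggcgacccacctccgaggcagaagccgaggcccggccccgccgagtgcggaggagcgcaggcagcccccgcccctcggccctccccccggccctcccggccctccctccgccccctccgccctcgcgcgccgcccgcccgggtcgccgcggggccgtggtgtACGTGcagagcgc
BNIP3 chr10:131981924-131982173 (- strand): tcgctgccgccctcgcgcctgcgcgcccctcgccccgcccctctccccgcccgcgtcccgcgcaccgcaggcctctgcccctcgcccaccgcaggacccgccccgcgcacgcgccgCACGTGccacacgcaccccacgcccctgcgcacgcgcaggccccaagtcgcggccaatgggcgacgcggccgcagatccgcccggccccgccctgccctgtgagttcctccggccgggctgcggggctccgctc
GPD2 chr2:156435302-156435551 (+ strand): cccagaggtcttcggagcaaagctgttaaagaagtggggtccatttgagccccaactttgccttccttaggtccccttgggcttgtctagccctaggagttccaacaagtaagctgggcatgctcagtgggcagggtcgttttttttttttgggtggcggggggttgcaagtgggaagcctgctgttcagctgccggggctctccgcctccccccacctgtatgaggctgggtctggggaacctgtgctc
SLC16A3 chr17:82228792-82229041 (+ strand): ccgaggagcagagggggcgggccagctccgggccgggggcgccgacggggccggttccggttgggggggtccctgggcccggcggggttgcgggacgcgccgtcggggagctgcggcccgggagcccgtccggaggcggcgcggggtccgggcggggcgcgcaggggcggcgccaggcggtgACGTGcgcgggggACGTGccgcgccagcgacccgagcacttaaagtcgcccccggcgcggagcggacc

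The LDHA window holds 3 separate sites, of which 2 are the palindrome, and the one nearest to the start lies 73 bases before it. EGLN1 holds 1 site, 13 bases before its start, and BNIP3 holds 1 palindrome, 133 bases before. GPD2 has 2 windows and 0 sites. SLC16A3 has 5 windows, and the one shown, the only one of them with the core, holds 2 sites, the nearer 55 bases before the start. LDHA has a further start whose window holds none.

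Windows were found for 31 of the 34 genes, and SLC16A1, SLC2A3 and VEGFA are named only. The core occurred in at least 1 window of 18 of the 31 (58.1%) and of 5935 of 27305 genes (21.7%). A gene with more windows has more places for it. Counted by window, the core was in 21 of 59 windows of these genes (35.6%) and in 6501 of 35116 windows of all genes (18.5%). All 5 genes that were higher in KD than in WT with LPS have it in at least 1 window. So do all 4 that were higher without LPS, and 1 of 2 that were lower in each state. Among genes with a window called in the LPS response in WT, 1 of 3 that rose and 2 of 2 that fell have it. In SCR these were 1 of 3 and 1 of 3, and in KD 0 of 1 that rose. The sets share genes, with LDHA in both sets higher in KD. HK2 and EGLN1 were higher in KD with LPS and also fell with LPS in WT. The 34 genes were picked by function and several are textbook HIF targets, so that the share in them is a description, and a match of letters does not show that a factor binds.

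HIF targets outside the list were set beside these values in the libraries with LPS. Of 22 tested, 7 were higher and 1 was lower in KD than in WT (36.4%), and the median log2 fold change of the 22 was 0.53. Over all genes tested, 10.8% were called and the median was 0.00. The 7 include MXI1, a MAX-binding repressor of MYC targets, at 37.8 ± 7.43 CPM in KD and 20.04 ± 2.29 CPM in WT (0.92 ± 0.15, adjusted p = 0.00116), and BHLHE40, a transcriptional repressor, at 18.02 ± 1.32 and 9.02 ± 0.59 CPM (1.00 ± 0.21, adjusted p = 0.00714). BNIP3L, a relative of BNIP3, had 0.66 ± 0.16 (adjusted p = 0.0140). WSB1, a subunit of a ubiquitin ligase, was lower (-0.52 ± 0.10, adjusted p = 0.00303). MIF, counted among the 7, was at 0.175, 0.840 and 8.76 CPM in KD and at 0.0973 to 0.501 CPM in WT, so that its call rests on KD library 6. The count of 8 calls became 3 without WT library 6, KD library 5 or KD library 6 and 4 without WT library 4, with medians of 0.48 to 0.62 over the 6 libraries left out in turn. All genes called fell as well, from 1808 to 376, 596, 1103 and 1098 in that order.

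The same 22 genes held 0 calls in SCR against WT with LPS (7 at an unadjusted p under 0.05 in edgeR, 1 called by DESeq2, median 0.10) and 0 in KD against SCR (6 at an unadjusted p under 0.05 in edgeR, 2 called by DESeq2, median 0.12). Over all genes tested, 0.114% and 0% were called in these 2 comparisons, and 13.7% and 11.8% had an unadjusted p under 0.05. DESeq2 on all libraries called 196 and 142 of all genes. Without LPS, 3 were higher and 1 was lower in KD than in WT, with a median of 0.11 that was -0.05 without KD library 1 and -0.05 without WT library 2. Over all genes tested, 11.7% were called and the median was -0.01. The count of calls was 2 without KD library 1, 1 without WT library 1 and 2 without WT library 3, where all genes called went from 1951 to 1934, 1246 and 962. Of the 12 genes of the HIF machinery, 2 were higher and 1 was lower in KD than in WT with LPS, beside 10.8% of all genes tested. They were ELOC, a subunit of the ubiquitin ligase that destroys HIF1A (0.85 ± 0.19, adjusted p = 0.00824), CITED2, which competes with HIF1A for its coactivator (0.94 ± 0.29, adjusted p = 0.0451), and HIF1AN, an oxygen sensor that blocks HIF1A activity (-0.40 ± 0.12, adjusted p = 0.0375).

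**Figure D4:**
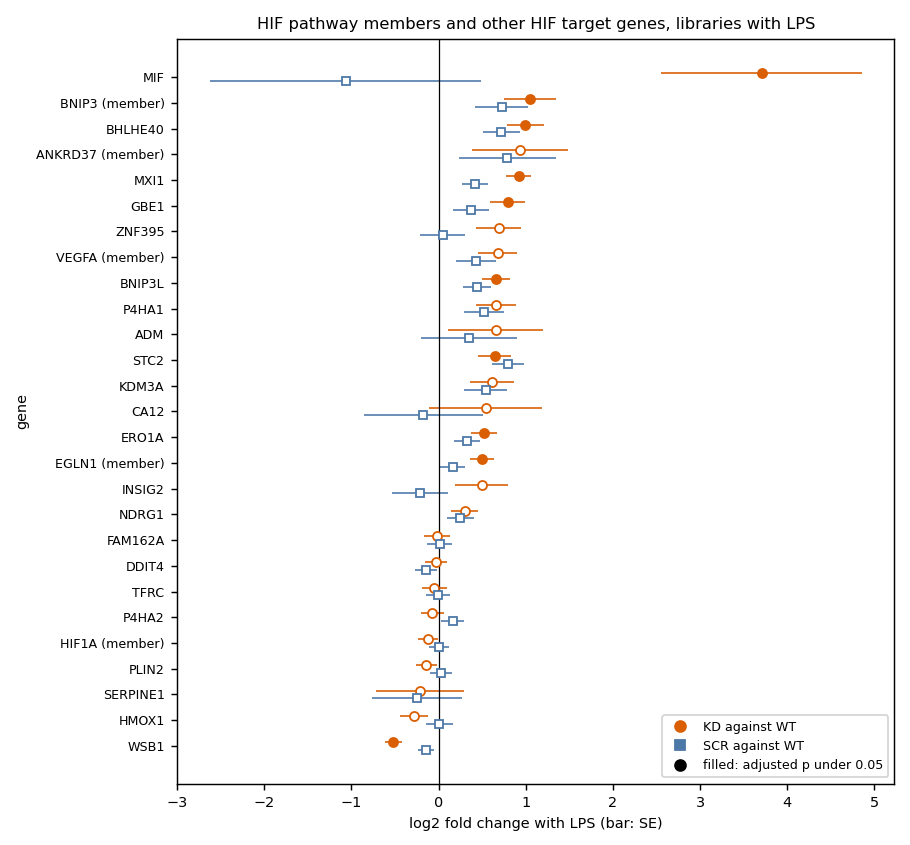
log2 fold changes with SE of the 5 tested HIF pathway genes of the list and 22 other HIF targets in the libraries with LPS, for KD against WT (circles) and SCR against WT (squares), filled where the adjusted p is under 0.05. The 2 series share the WT libraries, and 9 of the 10 filled circles lie to the right of 0, with WSB1 to the left.

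Among the genes of other parts of sugar metabolism, BSG, the chaperone of the lactate transporters, was higher in KD than in WT with LPS, at 85.5 ± 6.37 and 61.5 ± 3.29 CPM (0.48 ± 0.11, adjusted p = 0.00823). Of the 7 pentose phosphate genes, RPIA was higher (0.68 ± 0.18, adjusted p = 0.0199) and TALDO1 lower (-0.25 ± 0.08, adjusted p = 0.0428). Of all genes tested, 10.8% differed between KD and WT with LPS and 11.7% without. An unadjusted p under 0.05 was reached by 26.5% and 25.8% of them. None of the 11 genes of mitochondrial pyruvate use changed (edgeR, with 1 at an unadjusted p under 0.05 and 0 called by DESeq2). Without LPS, PDHX of that list and PGD and PGLS of the pentose phosphate list were higher in KD than in WT, and none of the 13 further glycolysis genes changed (edgeR, with 2 at an unadjusted p under 0.05 and 0 called by DESeq2).

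The summed level of the monocytic markers without LPS was 856 to 911 CPM in WT, 955 to 1052 CPM in SCR and 973 to 1052 CPM in KD. With LPS it was 924 to 985 CPM in WT, 887 to 1004 CPM in SCR and 1014 to 1087 CPM in KD. Of the 10 markers, 3 were higher and 1 was lower in KD than in WT without LPS, beside 11.7% of all genes tested. With LPS, 0 of the 10 were called (2 at an unadjusted p under 0.05 in edgeR). Of all genes tested, 10.8% were called there and 26.5% had an unadjusted p under 0.05. Markers of other cell types summed to 3.58 to 3.96 CPM in KD and 3.84 to 6.07 CPM in WT with LPS. The part of either in the values of the 33 genes was not tested. In bulk RNA, a change in the number of cells that make a transcript and a change in the amount per cell cannot be told apart.

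Across all 11 comparisons, 18 of the 33 genes (54.5%) were called at least once and 15 were not, beside 38.2% of all genes tested called at least once. The 15 include the enzymes TPI1, PGK1, PGAM1 and ENO1, whose group means stayed within 92.1 to 106 CPM, 331 to 354 CPM, 413 to 452 CPM and 602 to 655 CPM. VEGFA, the vascular growth factor that is among the best known HIF targets, was not called either, at 52.1, 54.6 and 31.1 CPM in WT, 65.1, 72.4 and 48.7 CPM in SCR and 69.2, 83.2 and 68.7 CPM in KD with LPS (KD against WT 0.68, adjusted p = 0.0561). SLC2A1, GPI, PFKL, PFKM, ALDOA, ALDOC, HK3, PFKFB4, PDK1 and PDK3 were called in none of them.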

How the data were processed

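RNA from 18 THP-1 libraries in 6 groups of 3 was measured with a 3' kit (QuantSeq). Per the paper's methods and the labels, the authors aligned reads to GRCh37 with HISAT and counted them per Ensembl gene with featureCounts over the last 500 bases of each gene, and the deposited values are raw read counts. Strand use is not given in the sources used here. All 18 columns were used. The 34 genes were matched by symbol through GENCODE v44lift37, which gave a symbol for 55665 of 63677 genes. The genes, the further lists and the tests were chosen with earlier results of these data known.

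Genes with low counts were removed by group (filterByExpr, edgeR 4.0.16 in R 4.3.3), which left 16678 of 34092 genes with counts. One quasi-likelihood model with a mean per group, TMM scaling and 11 contrasts was fitted to all libraries (square root of the common dispersion 0.170), with Benjamini-Hochberg adjustment over the genes tested. An exact permutation test of 3 against 3 libraries cannot go below 0.1. Scripts were tested on simulated data. Genes were named by rule, which took members past 0.05 with separate replicates, up to 6 a direction by adjusted p, then SLC2A1, HK2, PFKFB3, GAPDH, LDHA and HIF1A in the LPS responses and KD against SCR, GAPDH throughout, up to 3 genes per further list and direction, and TRAFD1, TNF and IL1B as checks. TNF with LPS was 103 to 157 CPM. Without LPS it was 12.7 to 18.7 CPM in WT, 35.1 to 47.9 CPM in SCR and 34.9 to 49.6 CPM in KD, so that it already differed before LPS. Alternatives were DESeq2 1.42.0 on all libraries and on those of a contrast (the study's design), no filter, RLE size factors, edgeR on the libraries of a contrast, pseudogene counts added, a GC offset, a replicate block and each library left out. No pair of replicates agreed within sampling noise (mean chi-square per gene 5.29 to 36.2). Floors cover counting error only.

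Same-numbered libraries of different conditions were checked for shared deviations over the genes tested, since the labels carry the numbers without saying what they stand for. In SCR and WT with LPS the correlations were 0.261, 0.163 and 0.253, all above 0.1, and these numbers were read as pairs. The main fit did not use the pairs, which entered only the alternatives with a replicate block. With the block, 135 genes in place of 19 were called in SCR against WT with LPS. In the other pairs of conditions at least 1 correlation was under 0.1.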

Additional observations from a re-analysis of the deposited data

Results flagged for a closer look

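GPD2 was the one gene of the list whose LPS response differed between SCR and WT by a test of the difference itself, with an interaction of -0.85 on the log2 scale. Its mean level without and with LPS was 181 and 380 CPM in WT and 215 and 251 CPM in SCR, where the difference did not pass.

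HIF1A separated KD from WT in opposite directions in the 2 states. With LPS every KD library lay below every WT library (-0.13), and without LPS every KD library lay above every WT library (0.14). Neither difference passed over all genes, and the difference between them was not tested. Such a pattern was looked for in each of the 33 genes, and how many of all genes show it was not counted.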

How the results depend on the processing

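The counts of the 33 genes called depended on the test and on single libraries. In KD against SCR with LPS, 0 calls became 1 with DESeq2 on all libraries, 3 with DESeq2 on the libraries of the comparison and 2 without the filter on low counts, and all genes called went from 0 to 142, 619 and 425. Without LPS, 0 became 1 with DESeq2 on all libraries, 1 without the filter and 2 with the replicate block. All genes called went from 11 to 242, 320 and 183 in that order. In KD against WT with LPS, 7 became 13 with DESeq2 and 12 with edgeR on the libraries of the comparison and 11 with the replicate block and a GC correction together, and with single libraries left out the count ran from 3 to 7. All genes called went from 1808 to 2949, 3235 and 2612 in that order. With single libraries left out, all genes called ran from 376 to 1428. Without LPS, 6 became 1 with edgeR on the libraries of the comparison, where all genes called went from 1951 to 280. With single libraries left out the count ran from 3 to 7, and all genes called from 962 to 1934. In SCR against WT with LPS, 1 became 3 with DESeq2 on the libraries of the comparison and 5 without the filter, with 0 to 1 when a library was left out. All genes called went from 19 to 465 and 593, and ran from 0 to 14 when a library was left out. Without LPS, 0 became 2 and 1 with DESeq2 on all libraries and on those of the comparison. It became 2 with the GC correction, 2 with the replicate block and 3 with both, and 0 to 1 when a library was left out. All genes called went from 538 to 929, 713, 651, 934 and 1040 in that order, and ran from 193 to 510 when a library was left out. In the LPS response in KD, 2 became 4 without the filter and 6 with the GC correction, and ran from 2 to 5 when a library was left out. All genes called went from 1912 to 2238 and 1918, and ran from 1098 to 3150 when a library was left out. Leaving out a library gave 4 to 9 calls in WT, from 7, and 6 to 8 in SCR, from 8. All genes called then ran from 1682 to 2095 in WT, from 2380, and from 1789 to 2376 in SCR, from 2869. In the interaction of LPS with SCR against WT, 1 became 3 without the filter, where all genes called went from 39 to 241. In that with KD against SCR, the count was 0 throughout. The cause of these moves was not tested.

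With the replicate block, calls were 8 in KD against WT with LPS and 9 without, 0 in KD against SCR with LPS and 1 in SCR against WT with LPS. All genes called went from 1808 to 2566, 1951 to 2423, 0 to 85 and 19 to 135 in that order. In the interactions, calls were 0 for KD against SCR, with 0 of all genes, and 1 for SCR against WT, where all genes called went from 39 to 41. Where the numbers pair the libraries, the block changed no call on a named gene. Elsewhere the libraries share only a number.

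Of 32 named fold changes that were called, 32 kept direction and call under DESeq2 on all libraries, 29 under DESeq2 on the libraries of the comparison, 26 under edgeR on those, 31 with RLE factors, 31 with the GC correction, 29 without the filter, 32 with pseudogenes added and 15 of 15 with the block. With single libraries left out, 148 kept the call, 50 lost it and 0 turned direction. Signs turned only among differences that were not called. GAPDH turned in the LPS response in KD with the GC correction (0.0531) and ran from -0.217 to 0.0078 when a library was left out. In SCR against WT with LPS it was 0.0497 with the GC correction and 0.0458 with the block and GC correction, and ran from -0.176 to 0.0355. In the interaction of LPS with KD against SCR it ran from -0.0863 to 0.154, below 0 without SCR library 2, SCR library 4, KD library 1 or KD library 6. LDHA in the LPS response in WT was -0.0055 without the filter and ran from -0.0864 to 0.125, below 0 without library 1, 4 or 5. In SCR it ran from -0.0813 to 0.156, below 0 without library 5. PFKFB3 in the LPS response in KD was -0.0057 with the GC correction and ran from -0.0401 to 0.158, below 0 without library 1 or 2. In KD without LPS against SCR, HK2 ran from -0.259 to 0.637 and SLC2A1 from -0.204 to 0.315, and in the LPS response in KD they ran from -0.450 to 0.441 and from -0.440 to 0.0747, each turning without KD library 1. Leaving out libraries for the other HIF targets was chosen after seeing the data.

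With 3 libraries a group, low genes such as ANKRD37 and ENO2 rest on few counts.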
